A study of Homo sapiens with 6 samples.

Results

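The metallothioneins described here are 8 genes of human chromosome 16: MT2A, MT1E, MT1F, MT1X, MT1G, MT1M, MT1A and MT3. They were taken by symbol from the 30949 genes of the deposited table, and the rule used no measured value. The cells were wild-type astrocytes of the human line WTC11, an established line of induced pluripotent stem cells, and they were kept as floating aggregates inside alginate capsules. For 48 hours, 3 cultures received ITC, a mixture of interleukin 1 alpha, TNF alpha and complement C1q, and 3 cultures received vehicle alone. Polyadenylated RNA of each culture was sequenced, which gave 3 ITC and 3 vehicle libraries. All cultures come from a single parental line, and each library is bulk RNA, in which fewer cells of a type and less RNA per cell cannot be told apart.

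Metallothioneins are small, cysteine-rich proteins that bind zinc and copper, and also cadmium, through clusters of thiolates. They buffer the free zinc of the cell and take up reactive oxygen species. The MT1 genes and MT2A are inducible: the zinc-sensing factor MTF1 acts on metal response elements in their promoters, and glucocorticoids and inflammatory cytokines are also known inducers. In the brain, astrocytes are a main source of the inducible forms. MT3 is enriched in the central nervous system, was first described as a growth inhibitory factor for neurons, and is known for responding little to metals.

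ITC cultures held more of the inducible metallothioneins and less of the brain-enriched one. MT2A was 16-fold higher, MT1E 14.7-fold higher and MT1F 4.64-fold higher in ITC than in vehicle, and MT3 was 17.4-fold lower. MT1X, another inducible gene of the same cluster, did not pass the test, and MT1G, MT1M and MT1A had too few counts to be tested. The summed level of the 8 genes was 11.3-fold higher in ITC, nearly all of it through MT2A.

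The members' coding sequences show how alike the inducible genes are; those of MT2A and of the 3 tested MT1 genes are given. They are the coding bases of the principal transcripts in GENCODE 29, all on chromosome 16, and each transcript has 3 exons. In the MT1 sequences, capitals mark the bases that differ from MT2A, 16 in MT1F and 14 each in MT1E and MT1X.
MT2A: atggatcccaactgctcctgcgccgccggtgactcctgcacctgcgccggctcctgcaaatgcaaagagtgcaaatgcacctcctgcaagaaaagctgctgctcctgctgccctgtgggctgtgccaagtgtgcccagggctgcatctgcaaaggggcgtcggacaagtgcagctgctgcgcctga
MT1F: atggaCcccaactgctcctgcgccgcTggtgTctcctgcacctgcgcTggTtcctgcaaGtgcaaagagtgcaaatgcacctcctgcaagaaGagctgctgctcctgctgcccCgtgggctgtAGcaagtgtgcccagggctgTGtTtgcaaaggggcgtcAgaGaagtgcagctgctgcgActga
MT1E: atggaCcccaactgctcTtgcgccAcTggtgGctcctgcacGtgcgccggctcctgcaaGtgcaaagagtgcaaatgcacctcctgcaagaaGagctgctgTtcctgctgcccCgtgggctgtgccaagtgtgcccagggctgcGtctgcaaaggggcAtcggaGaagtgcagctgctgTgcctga
MT1X: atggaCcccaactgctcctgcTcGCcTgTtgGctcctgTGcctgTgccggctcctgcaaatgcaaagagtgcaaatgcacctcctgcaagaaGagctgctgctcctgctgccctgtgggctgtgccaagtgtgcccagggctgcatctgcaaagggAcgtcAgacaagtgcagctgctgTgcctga
The 6 MT1 members were 89.8% to 95.2% identical to MT2A over 186 coding bases. No run of 100 bases of the MT2A, MT1E, MT1F, MT1G, MT1M or MT1A principal transcript occurred in another gene's transcript. Of runs of 50 bases, 4.88% of MT2A, 5.34% of MT1E and 3.59% of MT1F were shared with other genes, against 20.2% of MT1G and 45.1% of MT1X. Counts of MT1X and MT1G are therefore the least certain, since how shared reads were counted is not given in the sources used here. MT1X also shares 321 exon bases, 18.1% of its exon bases, with AC026461.1, a gene on the same strand. No counts were listed for AC026461.1.

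The RefSeq promoter table (GRCh38.p14) held 2 of the 8 members, MT2A and MT1X, which are also the inducible members with the largest and the smallest fold among those tested. The 250 bases before each RefSeq start are shown, on the plus strand, with capitals marking the core of the metal response element, TGCACNC or TGCGCNC on either strand. The window of MT2A is chr16:56608334-56608583 and that of MT1X is chr16:56682220-56682469. The gene positions given below start before the RefSeq starts, at 56608199 for MT2A and 56682424 for MT1X. The MT2A window thus lies wholly inside the listed gene, and the end of the MT1X window overlaps the listed MT1X gene.
MT2A promoter: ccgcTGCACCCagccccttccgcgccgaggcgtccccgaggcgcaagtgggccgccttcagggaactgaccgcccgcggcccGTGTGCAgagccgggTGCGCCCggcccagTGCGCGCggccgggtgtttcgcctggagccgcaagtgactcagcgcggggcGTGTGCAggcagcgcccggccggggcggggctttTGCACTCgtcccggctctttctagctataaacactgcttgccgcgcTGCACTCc
MT1X promoter: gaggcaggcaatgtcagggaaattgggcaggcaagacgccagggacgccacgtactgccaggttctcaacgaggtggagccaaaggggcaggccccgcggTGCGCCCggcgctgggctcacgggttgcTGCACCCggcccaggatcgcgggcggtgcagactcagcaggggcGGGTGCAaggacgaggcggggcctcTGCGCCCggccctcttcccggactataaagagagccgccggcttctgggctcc
MT2A held 7 cores and MT1X held 4. MT1H, a coding gene of the cluster with 2, 0 and 2 counts in ITC and 0 in each vehicle library, held 8. A core was found in 24.8% of 35116 promoters of the same length, at least 4 in 0.37%, at least 7 in 0.0313% and at least 8 in 0.0171%. An AP-1 word, TGACTCA or its reverse complement, occurred 1 time in the MT2A window and 0 times in that of MT1X, against 4.2% of all promoters with a match. The NF-kB word, GGG and CC with any 5 bases between them on either strand, occurred 2 times in MT2A and 3 times in MT1X, and 54.4% of promoters held it. These are matches of letters and not measured binding.

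Across all genes, 16756 passed the filter on low counts and were tested with edgeR's quasi-likelihood test, in which a gene counts as called at a Benjamini-Hochberg adjusted p under 0.05. Of these, 6599 were called, 3423 higher and 3176 lower in ITC. That split depended on the scaling: upper quartile scaling gave 2662 higher and 4059 lower, and library size alone 2282 higher and 4804 lower. Of the 8 metallothioneins, 5 were tested, and of those 4 were called, 3 higher and 1 lower, beside 39.4% called among all tested genes. MT1E passed the filter only through its ITC libraries and MT3 only through its vehicle libraries, so that the count of 4 carries no weight beyond the single genes. The 5 tested members had groups that did not overlap, which 50.2% of all tested genes also showed. A call with a fold of at least 4 in the higher direction, as MT2A, MT1E and MT1F had, was made for 4.39% of tested genes, and in the lower direction, as MT3 had, for 4.29%. For MT1E and MT3 these shares do not measure how rare such a fold is. A gene that passes the filter only through its higher group tends to have a large one. Total counts per library ranged from 17398921 to 29941685, mitochondrial genes took 2.64% to 3.43% of counts in ITC and 3.65% to 5.03% in vehicle, and TMM factors ranged from 0.886 to 0.953 in ITC and from 1.069 to 1.099 in vehicle. Libraries of a group differed beyond sampling noise in each pair (chi-square per degree of freedom of at least 11.3), so that each counted as 1 replicate. CPM values below are counts scaled to the TMM-adjusted library size.

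**Figure D1:**
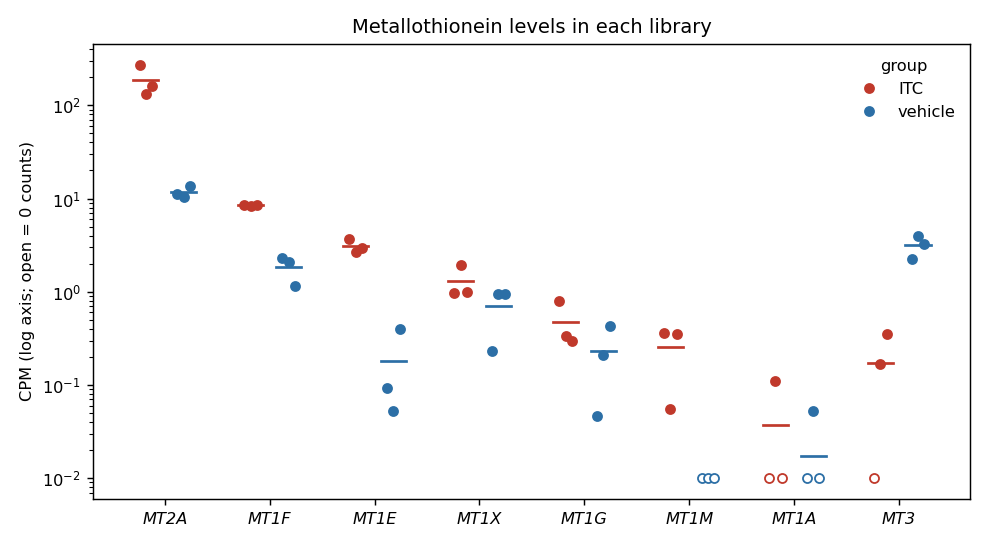
CPM of each metallothionein (log axis) in the 3 ITC and 3 vehicle libraries, with a bar at each group's mean; open points are libraries with 0 counts, drawn at the bottom of the axis. ITC libraries lie above vehicle libraries for MT2A, MT1F, MT1E and narrowly MT1X, and below them for MT3. They also lie above for MT1M, which was not tested, with 6, 1 and 6 counts in ITC and 0 in each vehicle library.

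MT2A, the most widely expressed human metallothionein, was the most abundant member in each of the 6 libraries. It lies at chr16:56608199-56609497 on the plus strand (GRCh38, as are all gene positions here). It had 4495, 2385 and 2720 counts in ITC replicates 1, 2 and 3, and 239, 200 and 442 counts in vehicle replicates 1, 2 and 3. As CPM this was 273, 132 and 160 in ITC, and 11.1, 10.5 and 13.6 in vehicle. The lowest ITC library thus lay far above the highest vehicle library, and ITC replicate 1 was the highest of all. The means were 188 ± 74.2 CPM in ITC and 11.7 ± 1.69 CPM in vehicle (SD, n = 3 each). The log2 fold change was 4.0 ± 0.26 (SE; 95% interval 3.44 to 4.55), with an edgeR adjusted p of 1.76e-08. In the authors' deposited table, which gives vehicle over ITC, MT2A had a log2 fold change of -4.01 and an adjusted p of 1.04e-60.

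MT1F, an inducible gene at chr16:56657694-56660698 on the plus strand, was second to MT2A in ITC. Its counts were 142, 151 and 143 in ITC, and 50, 40 and 37 in vehicle. The 3 ITC libraries lay close together at 8.61, 8.37 and 8.43 CPM, whereas the vehicle libraries spread over 2.32, 2.09 and 1.14 CPM, and the groups did not overlap. The mean was 8.47 ± 0.123 CPM in ITC and 1.85 ± 0.623 CPM in vehicle (SD, n = 3 each). The log2 fold change was 2.21 ± 0.28 (SE; 95% interval 1.60 to 2.82; edgeR adjusted p = 2.11e-05).

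MT1E, at chr16:56625475-56627112 on the plus strand, was nearly silent in vehicle. It had 61, 48 and 50 counts in ITC, and 2, 1 and 13 counts in vehicle. In CPM, ITC libraries held 3.70, 2.66 and 2.95, and vehicle libraries 0.0926, 0.0523 and 0.401. Vehicle replicate 3 supplied most of the vehicle counts and was still well below each ITC library. The log2 fold change was 3.88 ± 0.55 (SE; 95% interval 2.69 to 5.06; edgeR adjusted p = 5.83e-05). Without vehicle replicate 3 the log2 fold change was 5.23, so the size of the difference depended on that library although its direction did not.

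MT1X, at chr16:56682424-56684196 on the plus strand at the end of the cluster, had 16, 35 and 17 counts in ITC, and 5, 18 and 31 counts in vehicle. The CPM values were 0.970, 1.94 and 1.00 in ITC, and 0.232, 0.941 and 0.957 in vehicle. The groups were separated narrowly, 0.970 CPM in the lowest ITC library against 0.957 CPM in the highest vehicle library. With library size as the only scaling they overlapped, at 0.859 CPM in the lowest ITC library and 1.04 CPM in the highest vehicle library. The log2 fold change was 0.86 ± 0.54 (SE) with a 95% interval of -0.30 to 2.02 and an edgeR adjusted p of 0.229.

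MT3, at chr16:56589074-56591088 on the plus strand, was the second most abundant member in vehicle by mean FPKM, which is per length, and close to absent in ITC. It had 0, 3 and 6 counts in ITC, and 48, 75 and 106 counts in vehicle. These were 0, 0.166 and 0.354 CPM in ITC, and 2.22, 3.92 and 3.27 CPM in vehicle. Each vehicle library lay above each ITC library by a wide margin. The 0 of ITC replicate 1 allows up to 0.182 CPM, taken as 3 counts, which covers counting error only. The log2 fold change was -4.12 ± 0.60 (SE; 95% interval -5.42 to -2.83; edgeR adjusted p = 7.52e-05). It was -5.08 without ITC replicate 3 and -3.56 without ITC replicate 1.

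Lists of cell type markers were described beside MT3, and they did not all differ alike. Over all tested genes 39.4% were called, 20.4% higher and 19.0% lower in ITC. The 9 astrocyte markers summed to 1500 to 1930 CPM in ITC and 1620 to 1910 CPM in vehicle, so the labelled cell type was present by its markers in both groups. Of these 9, 6 were called lower and 1 higher in ITC, and the even sum rests on the higher one: SOX9 averaged 1100 CPM in ITC and 610 CPM in vehicle, whereas AQP4 averaged 19.7 CPM in ITC and 166 CPM in vehicle and S100B 196 CPM in ITC and 402 CPM in vehicle. The 6 neuron markers summed to 245 to 322 CPM in ITC and 694 to 861 CPM in vehicle, 3 of 5 tested were called lower and 0 higher, and the defining marker RBFOX3 was under 1 CPM in each library. The 5 markers of dividing cells summed to 21.7 to 25.6 CPM in ITC and 455 to 471 CPM in vehicle, and all 5 were called lower. The 6 oligodendrocyte lineage markers summed to 65.5 to 71.3 CPM in ITC and 281 to 343 CPM in vehicle, with 2 of 4 tested called higher and 2 lower. The 7 mesenchymal markers summed to 468 to 569 CPM in ITC and 553 to 628 CPM in vehicle, 1 called higher and 3 lower. Microglia markers summed to 0.555 to 1.18 CPM in ITC and 0.432 to 0.680 CPM in vehicle, none was tested, and PTPRC and P2RY12 had no row in the table. The part of these differences in the MT3 result was not tested.

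The members with few counts completed the family. MT1M, at chr16:56632233-56633986, had 6, 1 and 6 counts in ITC and 0, 0 and 0 in vehicle. Its mean CPM in ITC was 1.99-fold that of a floor of 3 counts per vehicle library. That value takes the ITC mean, which rests on 13 counts, as exact, so it is not a lower bound. ITC replicate 2, at 0.0555 CPM, lay under that floor. It was not in the edgeR test with the filter; without the filter its edgeR adjusted p was 0.0416, among 23.0% of 30949 genes called that way, and DESeq2, which called 30.1% of the genes it gave an adjusted p, gave 0.0386. MT1G, at chr16:56666731-56668065 on the minus strand, had 13, 6 and 5 counts in ITC and 1, 4 and 14 in vehicle. Its highest library was a vehicle one by count and ITC replicate 1 by CPM (0.788), and the groups overlapped, with an edgeR adjusted p of 0.467 without the filter. MT1A, at chr16:56638666-56640087, had 0, 2 and 0 counts in ITC and 0, 1 and 0 in vehicle, so that no difference was detectable at this depth. Of other metallothionein rows, the pseudogene MT1L had 0, 4 and 3 counts in ITC and 0, 0 and 1 in vehicle, and the coding gene MT1H had 2, 0 and 2 in ITC and 0 in each vehicle library. The processed pseudogene MT1XP1 on chromosome 1 had 0 in each ITC library and 2, 0 and 0 in vehicle.

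**Figure D2:**
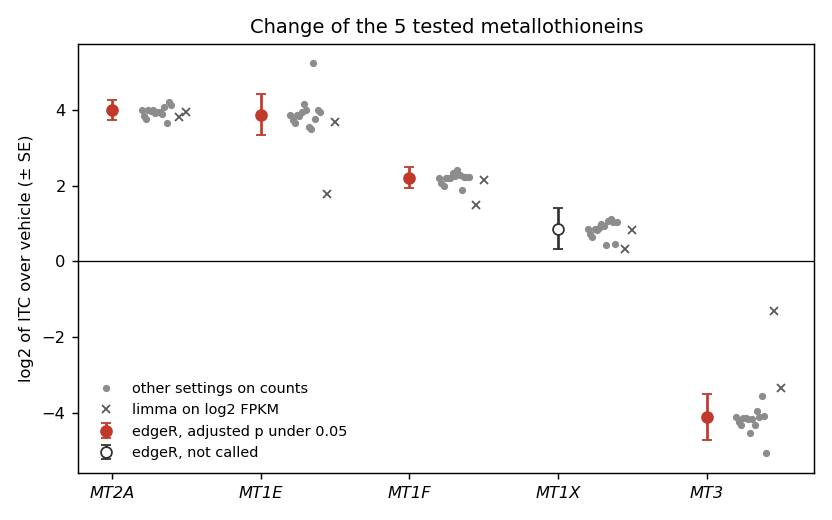
Log2 fold change of ITC over vehicle for the 5 tested metallothioneins: large points are the edgeR values with their SE, filled where the adjusted p is under 0.05; small dots are the other settings run on counts, and crosses are limma fits on log2 FPKM. MT2A, MT1E and MT1F stay above 0 and MT3 below 0 in each setting, and the low crosses of MT1E (1.79) and MT3 (-1.31) are the fit with a pseudocount of 1.

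A sum over the family does not depend on how reads were split among its own members, although it does not bring back reads that were discarded or counted to other genes. The 8 members together had 287, 146 and 174 CPM in ITC, and 16, 17.7 and 19.9 CPM in vehicle. The groups were far apart, and the spread within ITC followed MT2A. The means were 202 ± 74.7 CPM in ITC and 17.9 ± 1.94 CPM in vehicle (SD, n = 3 each), an 11.3-fold ratio. The 6 MT1 members alone had 14.4, 13.5 and 13.0 CPM in ITC, and 2.69, 3.35 and 2.93 CPM in vehicle, a 4.56-fold ratio of means. With MT1L, MT1H and MT1XP1 added, that ratio was 4.57.

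The make-up of the family differed as well. By the deposited FPKM, which divides by gene length, MT2A made up 95.4%, 91.9% and 93.4% of the members' summed level in ITC, and 75.8%, 65.5% and 73.0% in vehicle. MT3 made up 0%, 0.0818% and 0.146% in ITC, and 10.8%, 17.4% and 12.4% in vehicle. Neither pair of ranges overlapped. The mean share of MT1F was 3.15% in ITC and 8.04% in vehicle, although its level was higher in ITC, and that of MT1X was 0.555% in ITC and 3.08% in vehicle. The listed lengths span the whole gene model; with the length of the principal transcript in GENCODE 29, a choice made after seeing the data, the mean share of MT2A was 91.2% in ITC and 58.6% in vehicle, and that of MT3 was 0.144% in ITC and 21.4% in vehicle.

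**Figure D3:**
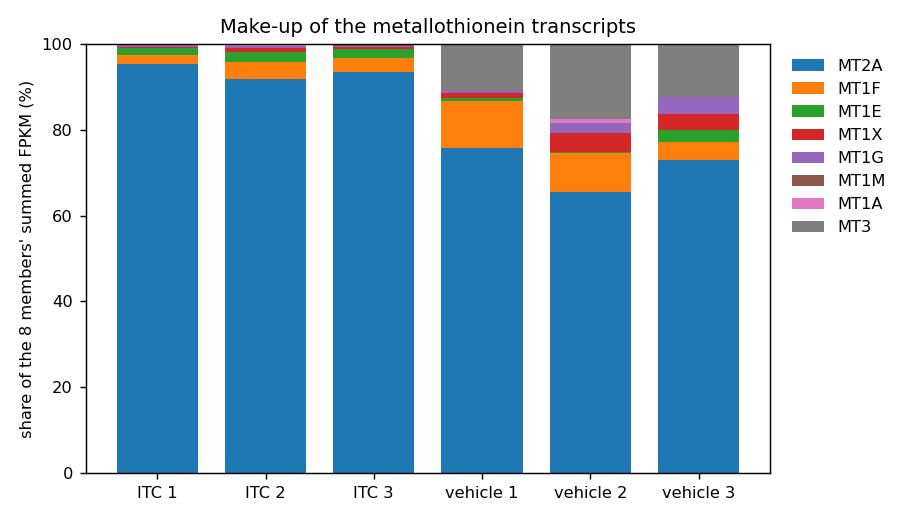
Share of each metallothionein in the 8 members' summed FPKM (%), 1 bar per library, ITC on the left and vehicle on the right. MT3, at the top of the bars, holds 10.8% to 17.4% in vehicle libraries and at most 0.146% in ITC libraries, where MT2A holds over 90% of the bar.

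The order of the levels per length followed from this. In ITC, mean FPKM was 150 for MT2A, 4.63 for MT1F and 3.05 for MT1E, and the libraries of these neighbours in the order did not overlap. Below them came MT1X at 0.758 and MT1G at 0.653 FPKM, whose libraries overlapped, then MT1M at 0.282, MT3 at 0.0962 and MT1A at 0.0960 FPKM, which overlapped as well. In vehicle, MT2A led at 9.23 FPKM and MT3 followed at 1.75 FPKM. MT3 was at 1.27 to 2.19 FPKM in the vehicle libraries and MT1F at 0.605 to 1.28 FPKM, ranges that overlapped slightly. In vehicle replicate 1, MT1F was just above MT3. MT1X followed at 0.407, MT1G at 0.309 and MT1E at 0.175 FPKM, with overlapping libraries, and MT1A was at 0.0451 and MT1M at 0.

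Ratios between members within a library do not depend on the scaling between libraries. The log2 ratio of MT2A over MT3, in counts plus 0.5 per kilobase of listed length, was 13.63, 9.91 and 9.21 in ITC, and 2.8, 1.91 and 2.55 in vehicle. The ITC values were all far higher, with ITC replicate 1 set apart by its 0 counts of MT3. The difference of means was 8.50 (two-sided exact permutation test, p = 0.1, which is the lowest value possible with 3 libraries a group). As MT2A was higher and MT3 lower in each ITC library, this separation followed from the levels given above. The test therefore adds no evidence to them. The difference was 7.14 without ITC replicate 1, whose ratio is set by the offset, and 9.35 without ITC replicate 3. The log2 ratio of MT1X over MT2A was -8.54, -6.52 and -7.73 in ITC, and -5.89, -3.89 and -4.26 in vehicle. It was lower in each ITC library than in any vehicle library, with a difference of -2.92 (exact two-sided permutation p = 0.1), and the Benjamini-Hochberg adjusted p over the 2 ratios was 0.1. This ratio largely restates the higher level of MT2A, as MT1X itself was not called. MT1X and MT2A lie on the same strand of 1 cluster, and the counting doubt on MT1X given above applies to this ratio.

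The genes beside the cluster were compared in the same test. The 8 members span 95.1 kb, from 56589074 to 56684196, and within 500 kb on either side the table held 27 other genes, of which 14 were tested. Of these, 3 were called higher and 1 lower, which is 28.6% beside the 39.4% of all tested genes, and their median log2 fold change was -0.29 (range -1.41 to 2.64). The split turned with the scaling, to 2 higher and 4 lower with upper quartile scaling and 2 higher and 5 lower with library size only. Without vehicle replicate 2, 2 of them were called. On the MT3 side, BBS2, a subunit of the ciliary BBSome, lies 68.8 kb away and had a log2 fold change of -0.32 ± 0.15 (edgeR adjusted p = 0.101); it was called lower with upper quartile scaling (-0.46, adjusted p = 0.0219) and with library size only (-0.55, adjusted p = 0.00942). On the MT1X side, the nuclear pore gene NUP93 lies 45.9 kb away and was called higher, by 0.63 ± 0.20 on the log2 scale (edgeR adjusted p = 0.0199), a call that was lost with library size as the only scaling (0.40, adjusted p = 0.105), with upper quartile scaling (0.49, adjusted p = 0.0548) and without ITC replicate 1 (0.0997), vehicle replicate 2 (0.0649) or vehicle replicate 3 (0.0815). The largest difference was that of NLRC5, the transactivator of MHC class I genes, 305.3 kb away: 19.4, 16.6 and 16.8 CPM in ITC and 3.80, 3.03 and 1.73 CPM in vehicle, with a log2 fold change of 2.64 ± 0.26 (edgeR adjusted p = 1.43e-06). Its fold of 6.25 was above those of MT1F (4.64) and MT1X (1.82) and below those of MT2A, MT1E and MT3.

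**Figure D4:**
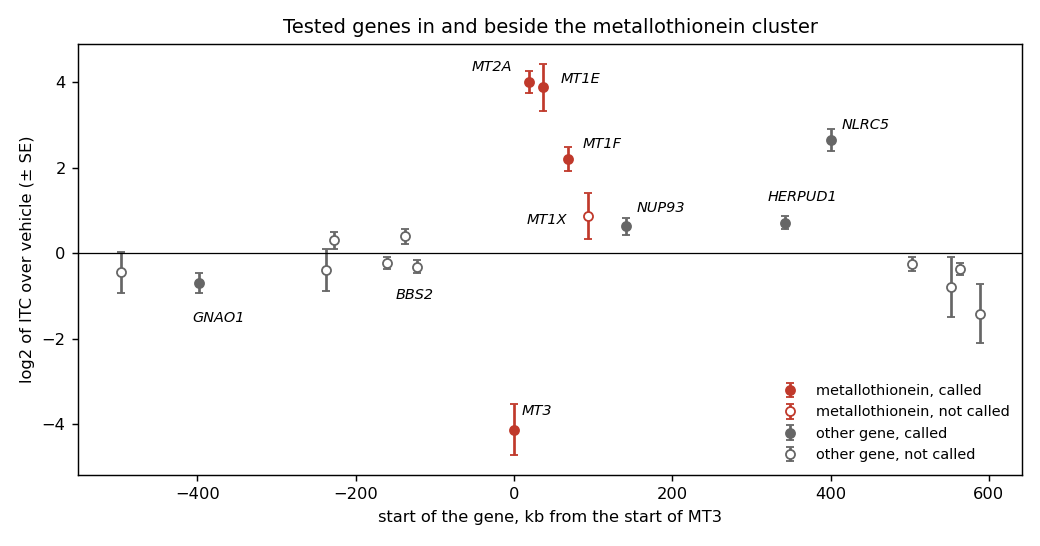
Log2 fold change of ITC over vehicle (± SE) for the tested genes in and beside the metallothionein cluster, against the distance of each gene's start from that of MT3 in kb; filled points are called. Among the metallothioneins MT3 lies at -4.12 and MT2A, the next member along the plus strand, at 4.0, while most genes outside the cluster lie near 0 and NLRC5 lies at 2.64.

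Zinc-handling genes were described next, since MT1 and MT2A transcription follows cellular zinc. Of 25 genes, MTF1 and the zinc transporters SLC30A1 to SLC30A10 and SLC39A1 to SLC39A14, 20 were tested, 7 were called higher and 1 lower. That is 40.0% called, close to the 39.4% of all tested genes, and the list's median log2 fold change was 0.36, against -0.01 over all tested genes. The split was 4 higher and 2 lower with upper quartile scaling and 2 higher and 2 lower with library size as the only scaling. The count of 8 became 3 without vehicle replicate 2 and 5 without ITC replicate 2. Among the tested genes, the largest differences were in importers, which bring zinc into the cytosol. SLC39A14, an importer also known to be raised by interleukin 6 in mouse liver, had 947, 872 and 752 CPM in ITC and 66.7, 51.6 and 48.5 CPM in vehicle. No library overlapped, and the log2 fold change was 3.95 ± 0.19 (edgeR adjusted p = 1.08e-09). SLC39A8, an importer known as an NF-kB target, had 34.4, 41.0 and 38.1 CPM in ITC and 3.38, 5.28 and 5.43 CPM in vehicle, with a log2 fold change of 3.0 ± 0.20 (edgeR adjusted p = 2.78e-08).

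MTF1, which encodes the zinc sensor itself, had 31.9, 36.6 and 33.8 CPM in ITC and 25.8, 24.0 and 21.1 CPM in vehicle. SLC30A1, a zinc exporter and, like the metallothioneins, a target of MTF1, had 98.9, 130 and 134 CPM in ITC and 77.7, 81.3 and 89.8 CPM in vehicle. The groups did not overlap for either gene, and both were called higher by small steps, MTF1 by 0.53 ± 0.16 (edgeR adjusted p = 0.0147) and SLC30A1 by 0.54 ± 0.16 (edgeR adjusted p = 0.016) on the log2 scale. Neither call held with upper quartile scaling (adjusted p = 0.0563 for MTF1 and 0.0653 for SLC30A1) or with library size only (0.142 for MTF1 and 0.145 for SLC30A1). The MTF1 call was also lost without ITC replicate 2 (0.0756), vehicle replicate 2 (0.0859) or vehicle replicate 3 (0.0684), and the SLC30A1 call without ITC replicate 2 (0.0768), ITC replicate 3 (0.0551), vehicle replicate 1 (0.0519) or vehicle replicate 2 (0.101). SLC30A7, which loads zinc into the Golgi, was called higher by 0.59 ± 0.15 (edgeR adjusted p = 0.00759), and this call was lost with library size only (adjusted p = 0.0821) and without ITC replicate 2 (0.0544) or vehicle replicate 2 (0.0722). The abundant importers SLC39A6 and SLC39A7 were not called, at -0.05 and 0.40. The 1 gene called lower was SLC39A10, an importer named here after its value was seen, at -1.08 ± 0.29, with its call lost without ITC replicate 1 (adjusted p = 0.0523). The importers SLC39A12 and SLC39A5, also named after their values were seen, had too few counts to be tested. SLC39A12 had 0 counts in each ITC library and 9, 12 and 33 in vehicle. SLC39A5 had 3, 1 and 4 counts in ITC and 10, 11 and 12 in vehicle.

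For copper, the other physiological metal of the family, 10 of 12 genes were tested, and 4 were called higher and 0 lower. That is 40.0% called, close to the 39.4% of all tested genes, and the median was 0.31. The largest was CP, which encodes the copper-carrying ferroxidase ceruloplasmin, at 583, 630 and 700 CPM in ITC and 14.7, 13.1 and 22.6 CPM in vehicle (log2 fold change 5.24 ± 0.24; edgeR adjusted p = 5.36e-10). CCS, the copper chaperone of superoxide dismutase, was called higher by 0.95, and the copper pump ATP7A by 0.61, a call lost when vehicle replicate 2 was left out (adjusted p = 0.0674) or libraries were scaled by size alone (0.0585). The copper importer SLC31A1 (0.25) and the cytochrome oxidase assembly factor SCO1 (0.05) were not called.

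Glucocorticoid-responsive genes, chosen because the hormone is a known inducer of MT2A, gave 5 called higher and 1 lower of 12 tested. That is 50% called, beside the 39.4% of all tested genes, a gap that was not tested, and the median was 0.42. KLF9, a Krüppel-like factor, was higher by 3.02 ± 0.17 on the log2 scale, the phosphatase gene DUSP1 by 1.41 and the glutamine synthetase gene GLUL by 1.38. The gene called lower was TSC22D3, also known as GILZ and a classical target of the receptor, at -1.45; it was named after its value was seen. The receptor gene NR3C1 (0.00) and DDIT4 (-0.41) were not called, although DDIT4 was called lower without ITC replicate 1 (adjusted p = 0.0123), without vehicle replicate 3 (0.0489), with upper quartile scaling (0.015) and with library size only (0.00492). No member of the list is specific to the hormone.

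For genes of the oxidant-sensing factor NRF2, 1 was called higher and 2 lower of 11 tested (27.3%), with a median of 0.09. HMOX1, heme oxygenase 1, was higher by 1.04 ± 0.22, whereas the quinone reductase NQO1 was lower at -1.50 ± 0.16 and the cystine importer SLC7A11 lower at -1.43. NFE2L2, which encodes NRF2, and TXNRD1 were not called, at 0.09 and -0.10. For the interleukin 6 and STAT3 pathway, 9 of 10 tested genes were called higher and 1 lower, with a median of 2.09. LIF, a cytokine of the interleukin 6 family, was higher by 3.73, and the transcription factor genes CEBPD and CEBPB by 3.25 and 2.84. The 1 lower gene, LIFR, which encodes the receptor of LIF, was named after its value was seen, at -1.56. All of these calls are from the same edgeR test, in which 20.4% of all genes were called higher and 19.0% lower.

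**Figure D5:**
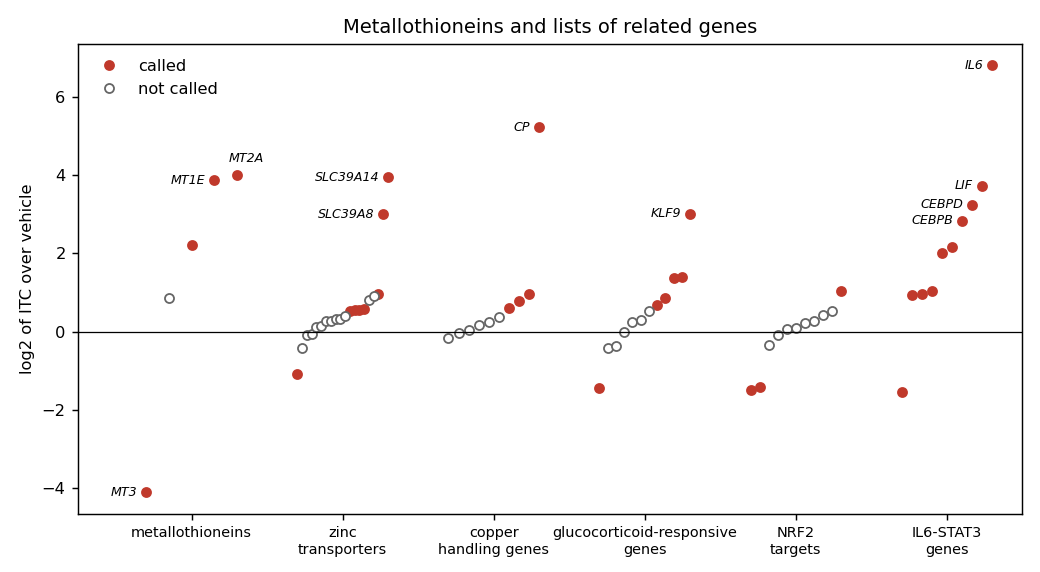
Log2 fold change of ITC over vehicle for the tested genes of the metallothionein family and of 5 lists, 1 point per gene, filled where called. Most zinc transporters, copper and NRF2 genes lie near 0, with SLC39A14 (3.95), SLC39A8 (3.0) and CP (5.24) well above, while 9 of 10 interleukin 6 and STAT3 genes lie above 0.

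Finally, protein-coding genes whose levels ran most like those of MT2A, MT1F and MT3 were sought among 10059 genes of at least 10 CPM on average. These members had the highest CPM averaged over the 6 libraries; by FPKM, MT1E rather than MT3 would be the third. Likeness was the root mean square difference in log2 CPM, centred on each gene's mean over the 6 libraries. Nearest to MT2A were HLA-B, an MHC class I chain (0.20), RASSF5, a RAS and RAP effector (0.24), and ID1, an inhibitor of DNA binding (0.25). HLA-B had 864, 584 and 504 CPM in ITC and 35.8, 33.9 and 39.1 CPM in vehicle, with ITC replicate 1 highest, as for MT2A. Nearest to MT1F were FAM83G (0.10), the palmitoyltransferase gene ZDHHC14 (0.15) and PPFIBP1, a liprin (0.18). Nearest to MT3 were ATP8A1, a phospholipid flippase (0.20), CALB1, the calcium-binding protein calbindin (0.36), and HMMR, a protein of the mitotic spindle (0.40). ATP8A1 had 1.21, 3.72 and 5.07 CPM in ITC and 33.1, 39.7 and 45.8 CPM in vehicle, with ITC replicate 1 lowest, as for MT3. The 6 libraries fall into 2 groups, so genes alike by this measure share the difference between the groups. They were also chosen by these same 6 values, so a like order of the replicates follows largely from the choice. For MT3 the order within ITC rests on 0, 3 and 6 counts.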

How the data were processed

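Per the labels' protocols, RNA came from a column kit with DNase treatment, and a service company made and sequenced poly-A libraries. Sample titles gave the groups and replicate numbers. The series text says that batches of capsules were each divided between the treatments, so p-values measure the spread between these cultures, of a single line. The members and lists were chosen with earlier results of these data known.

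The authors deposited whole-number counts per gene, raw as judged from their values and per the file headers. Which aligner and counter were used, and whether strand was used, is not given in the sources used here. DESeq2 and the build GRCh38 (hg38) appear in the submitters' processing notes. A second set of columns deposited by the authors is a signal: each library's counts over 1 size factor. The deposited log2 fold changes are of vehicle over ITC, per the file headers, and come with p-values. FPKM values were deposited too and divide by the gene length the table lists. Each sample column was mapped (0 left over), and 0 rows lacked a gene.

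The main test was that of edgeR 4.0.16 under R 4.3.3 (filterByExpr, TMM, quasi-likelihood test without covariates, Benjamini-Hochberg adjustment over all 16756 tested genes, threshold 0.05). Each SE was derived as the size of the log2 fold change over the square root of the test's F statistic. The 95% interval was built symmetrically from that SE with the t distribution. Both are approximate, most of all for genes near 0 counts in a group, such as MT3. Depths of 17398921 to 29941685 counts per library set floors of 0.0926 to 0.182 CPM (3 counts). Alternatives were other scalings and filters, leaving out each library, a replicate block, DESeq2 1.42.0, limma-voom and limma 3.58.1 on log2(FPKM + 1) and log2(FPKM + 0.1). The edgeR, DESeq2 and limma-voom fits were tested on simulated counts in which few genes changed, as many up as down. That setting differs from these data, so it does not bear on how the scaling affected the calls. Log2 CPM for the likeness used a prior count of 2. Exact tests used scipy 1.17.1 under Python 3.11.15; figures used matplotlib 3.10.9. Alignments of coding sequences used Biopython 1.88. Some sequence is not reported here.

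All members are named, with other metallothionein rows. From each list the text names up to 3 called genes (smallest p) and up to 2 uncalled ones (highest CPM), with MTF1 and SLC30A1 always; of the neighbours, the nearest tested coding gene on each side and the called one with the smallest p; and the 3 genes most like each of 3 members. Other genes are named as chosen after their values were seen.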

Additional observations from a re-analysis of the deposited data

How the results depend on the processing

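MT2A, MT1E, MT1F and MT3 kept their direction and stayed called in each of 16 alternatives, and MT1X stayed uncalled. Log2 fold changes ranged from 3.65 to 4.21 for MT2A (adjusted p 8.11e-82 to 1.89e-06), from 1.79 to 5.23 for MT1E, from 1.5 to 2.41 for MT1F, from 0.32 to 1.13 for MT1X (adjusted p 0.129 to 0.638) and from -5.08 to -1.31 for MT3. The smallest sizes for MT1E, MT1F, MT1X and MT3 came from log2(FPKM + 1), whose pseudocount shrinks low genes. Called members numbered 4 to 5, with MT1M added by DESeq2 and by edgeR without the filter. The MT2A over MT3 difference ranged from 5.13 to 9.35, that of MT1X over MT2A from -3.52 to -2.44, and the summed family from 3.16 to 3.69 on the log2 scale. Called zinc genes numbered 8, and 6 with upper quartile scaling, 4 with library size only and 11 with the replicate block; leaving out 1 library gave 3 to 8, with 3 without vehicle replicate 2 and 5 without ITC replicate 2. Called neighbours numbered 4, against 6 with upper quartile scaling, 7 with library size only, 2 in both limma fits on FPKM and 8 with the replicate block; leaving out 1 library gave 2 to 5. Over all genes, upper quartile scaling called 2662 higher and 4059 lower and library size only 2282 higher and 4804 lower, with the median log2 fold change of all tested genes at -0.16 and -0.24 under these scalings in that order. Same-numbered libraries correlated in their deviations by 0.268, 0.00733 and 0.384 for numbers 1, 2 and 3. Differently numbered libraries correlated by -0.338 to 0.0697, so numbers 1 and 3 gave the highest values and number 2 did not stand out. The series text does not say that the numbers mark the batches, so whether they pair the samples is not settled. The main test used no pairing. With the replicate block 8416 genes were called, against 6599 without it, and the same number of members, 4. Depth limits MT1G, MT1M and MT1A, and 3 libraries a group from 1 cell line limit each statement.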
